A study of Mus musculus with 10 samples.

Results

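The regions near 9 genes that encode chemokine receptors were compared among ILC2s (group 2 innate lymphoid cells) from 5 mouse tissues. The genes were *Ccr1*, *Ccr2*, *Ccr4*, *Ccr6*, *Ccr7*, *Ccr8*, *Ccr9*, *Cxcr4*, and *Cxcr6*. A region of the merged peak table was a member when its centre lay inside one of these genes or when its nearest RefSeq transcription start site (TSS) belonged to one. This gave 73 of 50039 regions, and all 73 were members by their nearest TSS. *Cxcr4* had 23 regions, *Ccr1* 16, *Ccr4* 8, *Ccr7* 7, *Cxcr6* 7, *Ccr2* 4, *Ccr9* 4, *Ccr8* 3, and *Ccr6* 1. ILC2s came from lung, pancreas, bone marrow (BM), small intestine (SI), and large intestine (LI) of wild-type male C57BL/6 mice that were 6 weeks old. Accessibility was measured by ATAC-seq, in which the Tn5 transposase cuts and tags open chromatin, in 2 libraries per tissue of 50000 cells each. A library pooled 16 mice for BM, lung, and pancreas and 10 mice for LI and SI. BM cells were gated as ST2+CD25+ on one sorter. LI, lung, and pancreas cells were gated as CD45+CD127+ST2+CD25+ and SI cells by CD127, CD45, a low Thy1 level, and KLRG1, on another sorter. All gates left out cells that carried CD3, B220, CD11b, FcεRI, or CD11c. The gate and the sorter change with the tissue, so they cannot be told apart from it. In these bulk libraries, more open cells and more open chromatin per cell cannot be told apart either.

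Chemokine receptors are G protein-coupled receptors that steer migrating leukocytes along gradients of chemokines, through Gi proteins, PI3K, and small GTPases. The set of receptors on a lymphocyte helps to decide which tissue it enters and whether it stays. CCR9 with its ligand CCL25 directs cells to the small intestine, CCR6 with CCL20 to mucosal lymphoid tissue, and CXCR4 with CXCL12 keeps cells in the bone marrow. CCR4 and CCR8 are found on type 2 lymphocytes, CCR1 and CCR2 bind inflammatory chemokines, CCR7 leads cells to lymph nodes, and CXCR6 with CXCL16 is found on tissue-resident lymphocytes. Open chromatin at a gene is not a measure of its mRNA, and a region was given to the nearest TSS by convention, whatever gene it may act on.

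Genomic sequence is shown for 1 region each of *Ccr9*, *Ccr6*, *Ccr4*, *Ccr8*, and *Cxcr4*, a chosen subset of the 9 genes. Each is the region with the lowest p over tissues at its gene. The regions so defined at *Ccr1* (+31.9 kb) and *Ccr2* (+1.25 kb) had a lower p than those of *Ccr4* and *Ccr8* but are not shown. The central 300 bases are given on the plus strand of GRCm38 (mm10). Capitals mark matches, on either strand, to 9 short motifs. The letters searched were AGATAA for GATA factors, TGANTCA for activator protein 1 (AP-1), TGTGGT for RUNX factors, AGGTCA for nuclear receptor half-sites, GGGNGTGG for KLF factors, GAAANNGAA for IRF factors, CAGCTG for an E-box, GCGTG for Ahr, and CTTTGA for TCF factors. A region is named by the distance of its centre from the TSS, negative upstream. The starts in the table were read as counted from 0, which leaves positions open by 1 base. The *Ccr9* region was most open in BM, the *Ccr6* and *Ccr4* regions in LI and SI, and the *Ccr8* and *Cxcr4* regions were least open in SI.
*Ccr9* −10.3 kb, chr9:123756807-123757106: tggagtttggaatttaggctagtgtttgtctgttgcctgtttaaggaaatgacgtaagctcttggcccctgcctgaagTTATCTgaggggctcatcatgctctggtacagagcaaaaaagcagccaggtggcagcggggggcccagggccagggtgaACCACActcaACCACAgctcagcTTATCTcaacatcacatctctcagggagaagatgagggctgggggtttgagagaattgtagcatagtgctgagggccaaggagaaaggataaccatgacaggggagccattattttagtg
*Ccr6* −25.9 kb, chr17:8210007-8210306: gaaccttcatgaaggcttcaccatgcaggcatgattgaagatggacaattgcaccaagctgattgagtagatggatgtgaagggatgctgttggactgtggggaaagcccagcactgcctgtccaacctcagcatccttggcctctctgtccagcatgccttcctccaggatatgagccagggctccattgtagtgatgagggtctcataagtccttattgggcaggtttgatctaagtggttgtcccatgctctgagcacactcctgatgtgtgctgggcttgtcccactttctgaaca
*Ccr4* +15.4 kb, chr9:114480982-114481281: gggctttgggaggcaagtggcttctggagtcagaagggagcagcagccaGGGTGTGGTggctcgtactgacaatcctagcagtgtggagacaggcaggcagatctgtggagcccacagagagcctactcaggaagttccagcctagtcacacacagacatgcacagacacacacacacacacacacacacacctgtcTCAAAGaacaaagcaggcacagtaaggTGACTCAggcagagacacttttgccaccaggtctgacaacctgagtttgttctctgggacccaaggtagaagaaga
*Ccr8* −0.525 kb, promoter, chr9:120091458-120091757: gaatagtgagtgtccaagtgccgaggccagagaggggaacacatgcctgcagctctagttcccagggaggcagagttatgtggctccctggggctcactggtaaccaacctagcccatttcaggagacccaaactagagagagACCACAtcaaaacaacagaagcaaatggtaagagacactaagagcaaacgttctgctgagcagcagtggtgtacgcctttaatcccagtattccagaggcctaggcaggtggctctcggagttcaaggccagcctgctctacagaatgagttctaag
*Cxcr4* −113 kb, chr1:128705157-128705456: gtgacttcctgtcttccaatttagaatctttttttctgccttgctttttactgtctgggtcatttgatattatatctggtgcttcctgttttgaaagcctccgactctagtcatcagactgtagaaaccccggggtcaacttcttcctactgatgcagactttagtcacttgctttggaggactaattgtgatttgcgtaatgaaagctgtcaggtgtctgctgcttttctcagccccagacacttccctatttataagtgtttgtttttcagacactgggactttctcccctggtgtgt
The *Ccr9* sequence held 2 GATA and 2 RUNX matches. The *Ccr4* sequence held 1 match each to AP-1, RUNX, KLF, and TCF, the RUNX and KLF matches overlapping. The *Ccr8* sequence held 1 RUNX match, and no match was found in the *Ccr6* and *Cxcr4* windows.

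Library totals lay between 10282987 and 32797872 counts, and the 73 regions took 0.0935% to 0.162% of them. Counts of a member region in a library ran from 12 to 4649. Replicates differed by more than counting noise, with a chi-square per degree of freedom of 12.8 to 56.0, and the duplicates are called biological without saying whether their mice were pooled apart, so p-values measure the spread between these libraries. Promoter regions were in the table for 10 of 10 ILC2 markers, and their summed CPM (TMM-scaled counts relative to the library total) ran from 300 in SI to 411 in pancreas. At promoter regions of gate genes, *Il1rl1* (ST2) went with its gate, with 4.04 CPM in SI against 11.4 to 35.4 elsewhere. *Klrg1*, a marker of the SI gate alone, did not. Its 50.3 CPM in SI lay below pancreas (73.9) and LI (67.0) but above lung (40.8) and BM (11.3). *Il2ra* (CD25), which the SI gate did not use, had 24.1 CPM there, 22.7 in BM, and 29.5 to 39.0 otherwise. *Il7r* (CD127), which the BM gate did not use, had 16.1 CPM there and 12.3 (SI) to 19.0 (LI) otherwise. Promoter regions were in the table for 2 of 5 T cell, 1 of 4 B cell, 2 of 5 myeloid, and 1 of 3 epithelial markers. None was in the table for the 3 ILC3, 3 NK and ILC1, 3 mast cell and basophil, and 3 endothelial markers, of which 2, 2, 1, and 2 had regions elsewhere. Among those, the summed regions of the endothelial genes *Kdr* and *Pecam1* had 83.6 CPM in SI to 164 CPM in pancreas and 56.6 CPM in pancreas to 85.8 CPM in SI, named after their values were seen.

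Of the 73 regions, 38 differed among the 5 tissues (edgeR quasi-likelihood F test over the 10 libraries, adjusted p below 0.05). This is 52.1%, against 44.2% of the 49981 regions tested. The median fold of the highest over the lowest tissue mean was 2.12 for the members and 1.9 for all regions. Only 6 members were promoters (8.22%, against 19.2% of all regions), 13 were intragenic, and 54 were intergenic. Among the 38, the highest tissue was lung for 14 (36.8%, against 13.6% of all regions that differed), BM for 7, LI for 6, SI for 6, and pancreas for 5. The lowest tissue was SI for 17 (44.7%, against 22.4%), BM for 12, LI for 5, pancreas for 3, and lung for 1. *Cxcr4* alone held 16 of the 38, with 10 of the 14 highest in lung and 11 of the 17 lowest in SI. The excess shares for lung and SI thus came mostly from 1 locus and are not a trait of all 9 genes. Neighbouring regions share their libraries and are not independent, so these shares are a description.

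A region was called tissue-specific (TS) when it was higher than in each of the other 4 tissues with an unadjusted p below 0.05 in each contrast, and commonly decreased when it was lower in the same way. There were 7 TS calls, 3 in BM (4.11% of members, against 4.5% of all regions), 3 in lung (4.11%, against 1.3%), and 1 in pancreas (1.37%, against 1.43%). By edgeR or DESeq2, at unadjusted p, 0 members were TS in LI or SI, where 1.3% and 2.8% of all regions were by edgeR. There were 12 commonly decreased calls, 8 in SI (11% of members, against 3.59% of all regions) and 4 in BM (5.48%, against 6.63%). By either tool 0 members were decreased in LI, lung, or pancreas, where 0.132%, 1.72%, and 0.572% of all regions were by edgeR. Intestinal regions, higher in both LI and SI than in each of the other 3 tissues, were 2 members (2.74%, against 2.18%). The shares higher in lung and lower in SI lay furthest above those of all regions. Of the 8 calls lower in SI, 6 were at *Cxcr4*, as were 2 of the 3 calls higher in lung. Below, a call is said to hold in all refits when it was kept in 8 alternative fits (of scaling, tool, filter, replicate block, and GC content) and in the 10 fits that each leave out 1 library, at the same thresholds. Of the 7 TS calls 3 did so, and of the 12 decreased calls 7. A margin is the smallest log2 difference from another tissue in the fit of all 10 libraries, unless a setting is named.

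**Figure D1:**
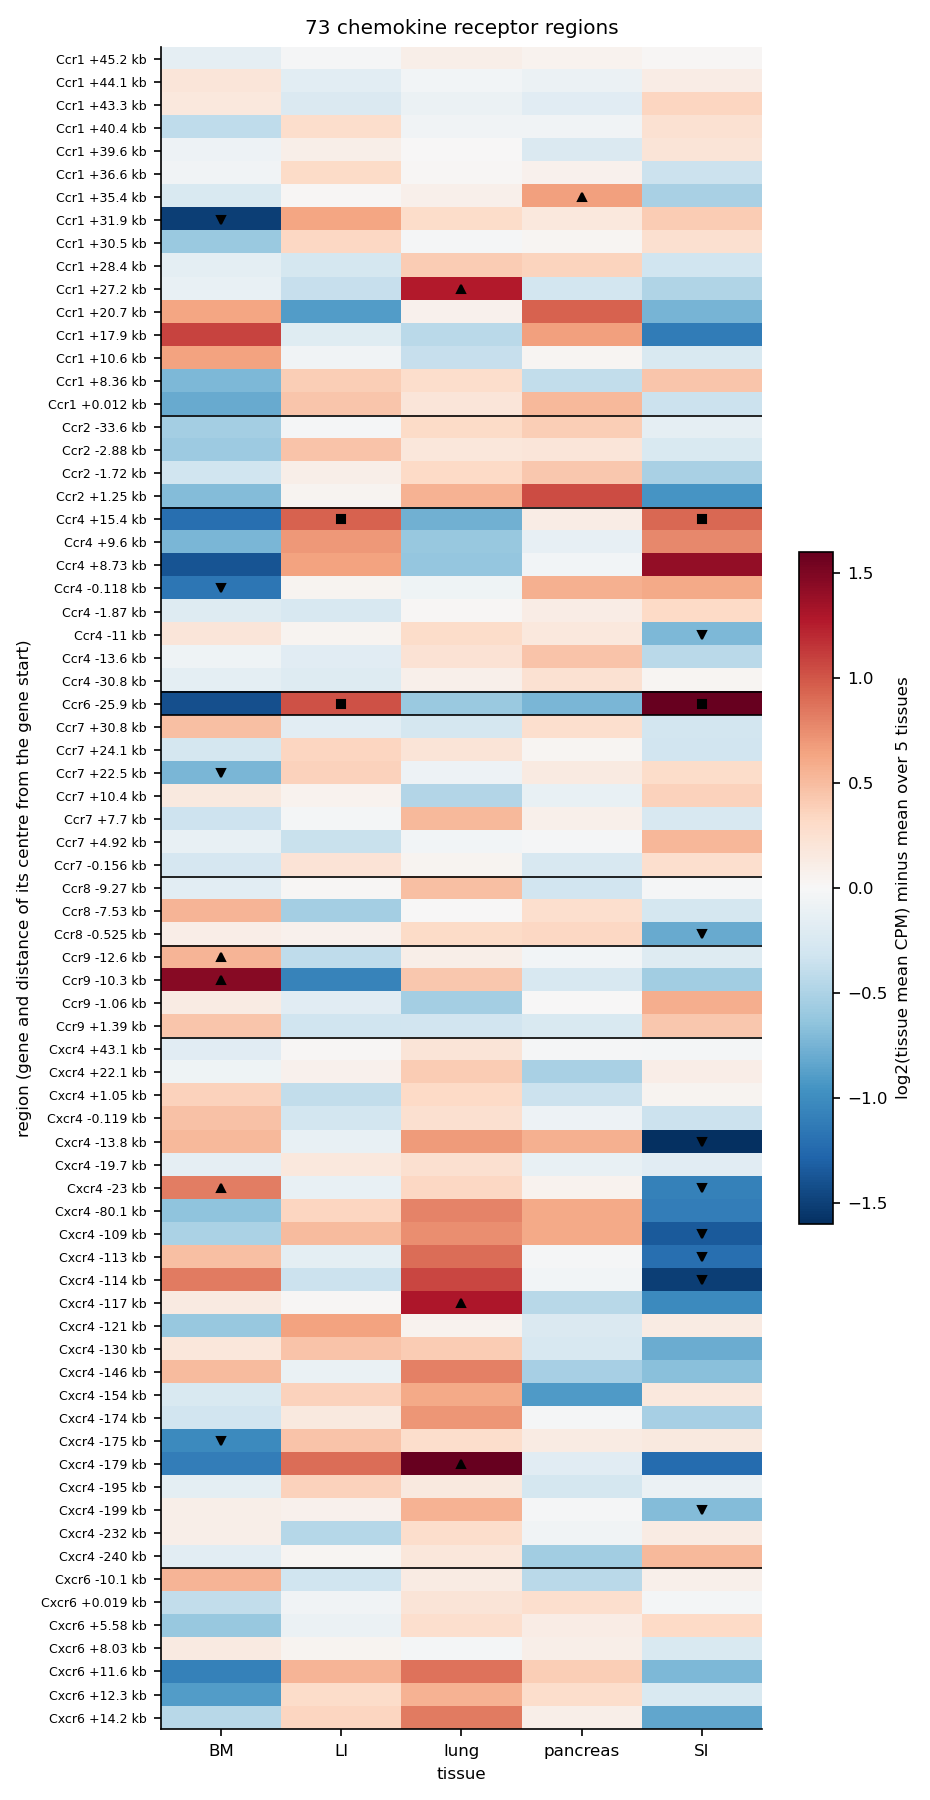
Heat map of the 73 regions (rows, ordered by gene and position) in the 5 tissues (columns), as the log2 of the mean CPM of 2 libraries minus its mean over tissues. Upward triangles mark regions called higher than in each other tissue, downward triangles regions called lower, and squares the 2 intestinal regions. Of the 16 *Cxcr4* rows that differed, 11 are lowest in SI and 10 highest in lung.

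For each gene the counts of its regions were summed and tested in the same way over 17484 genes with a region. The sums of 5 of the 9 genes differed among tissues, *Ccr2*, *Ccr6*, *Ccr8*, *Ccr9*, and *Cxcr4*, where 41.4% of all genes did. The summed *Ccr9* regions had 124 and 136 CPM in BM and 54.2 to 89.0 CPM in the other 8 libraries. BM thus lay above every other library, by 0.63 to 1.11 (log2) over each tissue mean, with adjusted p between 0.000378 and 0.0176, and among the other 4 tissues no pair passed (adjusted p of 0.102 to 0.931). The summed *Ccr8* regions had 71.3 and 88.6 CPM in SI and 115 to 167 CPM elsewhere, and SI was lower than each other tissue by 0.68 to 0.96 (log2, adjusted p of 0.000532 to 0.0135). The summed *Cxcr4* regions ran from 273 and 305 CPM in SI to 472 and 569 CPM in lung, a difference of 0.85 ± 0.16 (log2, SE, adjusted p = 0.00209). BM was also above SI at *Cxcr4* (0.57, adjusted p = 0.0232), while the 8 other pairs had adjusted p of 0.0662 or more. The *Cxcr4* call over the 5 tissues had an adjusted p of 0.00720, and of 0.0504 without lung replicate 2. The summed *Ccr2* regions were highest in pancreas (40.9 and 33.6 CPM) and lowest in BM (18.1 and 18.9), with SI (18.0 and 23.8) next to BM. Pancreas exceeded BM by 1.02 ± 0.20 (log2, adjusted p = 0.00323) and SI by 0.84 ± 0.20 (adjusted p = 0.0107). Lung also exceeded BM (0.85, adjusted p = 0.0104) and SI (0.68, adjusted p = 0.0323), and LI exceeded BM (0.68, adjusted p = 0.0190). Pancreas against lung did not pass (adjusted p = 0.680), so the high level was not particular to pancreas. The sums of *Ccr1* (adjusted p = 0.935), *Ccr4* (0.174), *Ccr7* (0.113), and *Cxcr6* (0.0885) did not pass the test, which does not show that these genes were alike in all tissues. With library size alone *Cxcr6* passed (0.0433). Without SI replicate 1 or 2, *Ccr4* passed with adjusted p of 0.0278 or 0.0461, and without SI replicate 2 *Cxcr6* passed with 0.0290.

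**Figure D2:**
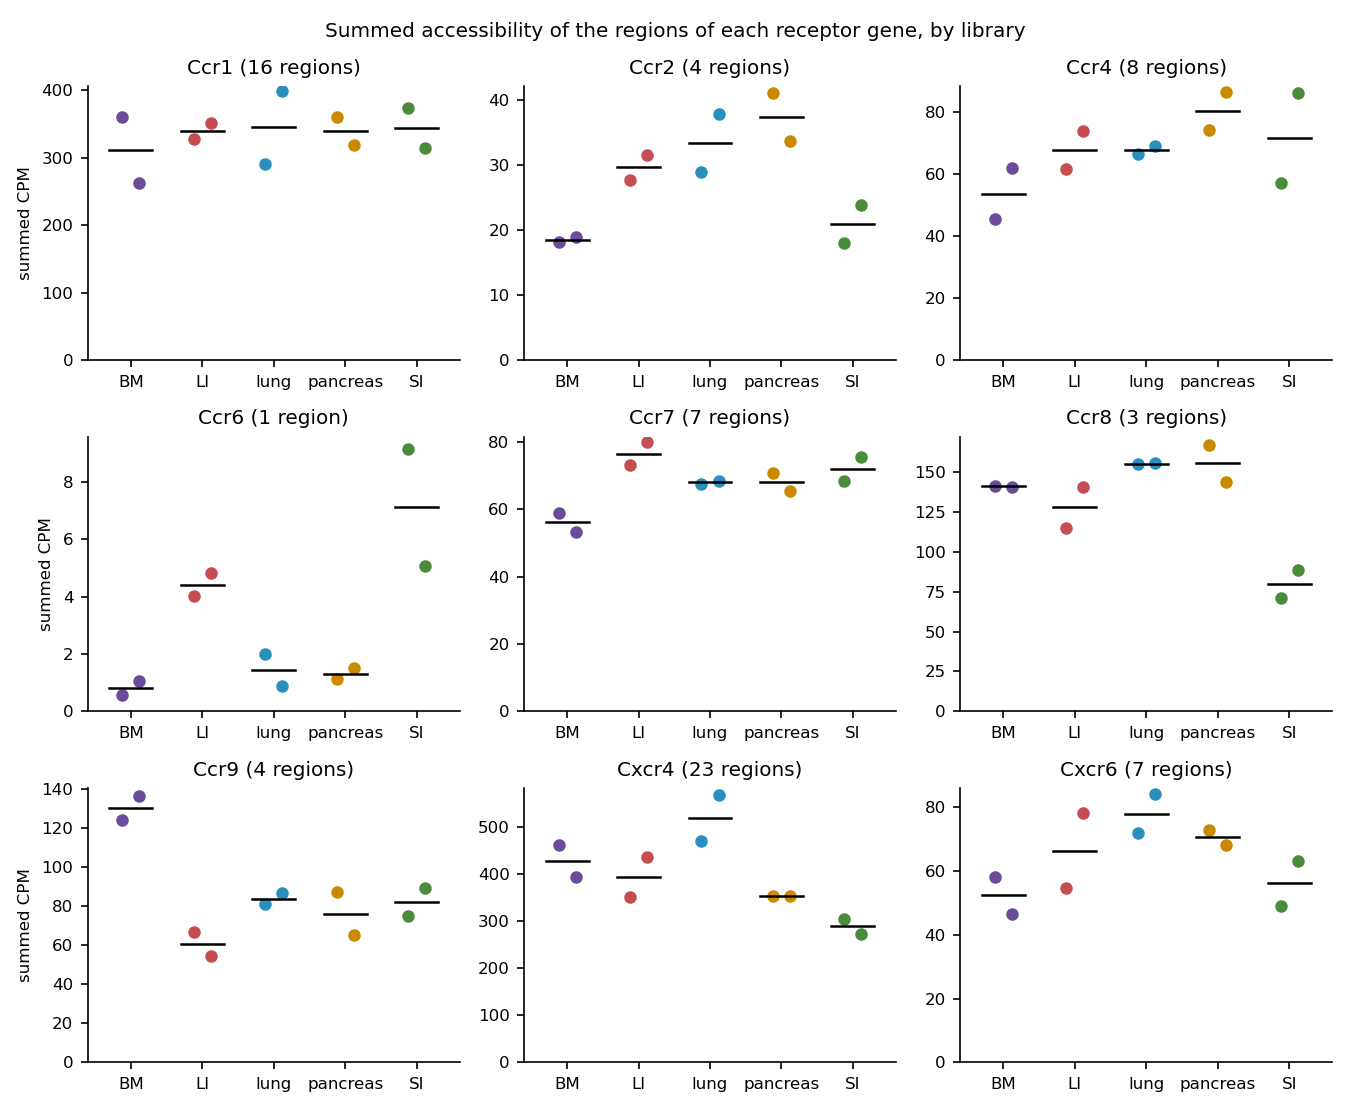
Summed CPM of the regions of each receptor gene, with 1 point per library and a line at the mean of the 2 libraries of a tissue. Both BM points are the highest at *Ccr9*, both SI points the lowest at *Ccr8* and *Cxcr4*, and the LI and SI points the highest at *Ccr6*.

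*Ccr9*, the receptor for CCL25, had 4 regions, and all 4 differed among tissues. The region at −10.3 kb had 29.8 and 31.2 CPM in BM, 16.5 and 13.5 in lung, 11.5 and 7.12 in pancreas, 6.98 and 8.15 in SI, and 6.54 and 4.08 in LI. Both BM libraries were above the other 8, and both LI libraries were below them. BM exceeded LI by 2.55 ± 0.29 (log2, SE, adjusted p = 1.69e-05) and lung, the nearest tissue, by 1.02 (unadjusted p = 0.00139). This TS call for BM held in all refits. The region at −12.6 kb, among the most open members at 92.2 CPM per kb, had 62.9 and 72.6 CPM in BM and 32.1 to 51.4 CPM elsewhere. It was also TS in BM, but the margin over lung was 0.45 (log2, unadjusted p = 0.0328). The TS call at −12.6 kb was lost without BM replicate 2 (a margin of 0.34), lung replicate 1 (0.39), lung replicate 2 (0.49), or pancreas replicate 2 (0.42), and with library size alone (0.24). The regions nearer the gene had another order. At +1.39 kb in intron 1, BM (24.1 and 26.7 CPM) and SI (22.5 and 28.0) were both above the other 6 libraries, which had at most 17.7 CPM. The *Ccr9* test at +1.39 kb had an adjusted p of 0.0159, and of 0.0537 without BM replicate 2. At −1.06 kb, SI was highest (8.38 and 8.92 CPM) and lung lowest (3.57 and 4.33), with a difference of 1.13 ± 0.29 (log2, adjusted p = 0.01). The test over tissues at −1.06 kb (adjusted p = 0.0393) reached 0.177 when single libraries were left out and passed in 2 of 10 such fits. SI was thus high at the 2 regions nearest the gene and low at −10.3 kb.

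*Ccr6*, the receptor for CCL20, had 1 region, at −25.9 kb and outside the gene, and no region of the table lay in the gene or at its promoter. It was weakly open, with a mean of 6.04 CPM per kb, so the counts are given. They were 190 and 146 in SI, 46 and 111 in LI, 19 and 14 in pancreas, 51 and 32 in lung, and 12 and 23 in BM. The library totals differ, so CPM are also given. As CPM, SI had 9.15 and 5.09, LI 4.01 and 4.82, lung 2.00 and 0.883, pancreas 1.12 and 1.51, and BM 0.587 and 1.06. The lowest intestinal library had 4.01 CPM and the highest other library 2.00, so the groups did not overlap. SI exceeded BM by 3.09 ± 0.50 (log2, adjusted p = 0.000313). The smallest of the 6 contrasts that define an intestinal region was 1.64 (log2, LI over lung), and 1.15 without lung replicate 2. The call held in all refits, but it was lost with adjusted p below 0.05 asked of each contrast. B cells also carry CCR6, and the gates exclude cells with the B cell marker B220. The promoter region of the B cell factor *Ebf1* had 9.67 CPM in SI, 5.55 in LI, and 2.90 to 3.63 elsewhere, while *Cd79a* had no region in the table. *Pax5*, another B cell factor, had 1 region outside its promoter, with 21.5 CPM in BM, 15.8 in SI, and 7.75 to 8.10 elsewhere. *Ebf1* was thus highest in SI, as the *Ccr6* region was, and *Pax5* in BM, where the *Ccr6* region was lowest. The part of other cell types in the *Ccr6* result was not tested.

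*Ccr4*, a receptor for CCL17 and CCL22, had 8 regions, of which 4 differed among tissues, all 4 lowest in BM. Downstream, the region at +15.4 kb had 6.45 and 5.73 CPM in LI, 4.67 and 7.32 in SI, 3.12 and 3.77 in pancreas, 2.27 and 1.46 in lung, and 1.57 and 1.20 in BM. LI exceeded BM by 2.13 ± 0.39 (log2, adjusted p = 0.000801). All 4 intestinal libraries were above the other 6, and the smallest of the 6 contrasts was 0.81. This intestinal call was lost without LI replicate 1 (0.74), LI replicate 2 (0.79), pancreas replicate 1 (0.67), pancreas replicate 2 (0.95), or SI replicate 2 (0.44), and with DESeq2 (0.80). The neighbours at +9.60 kb and +8.73 kb were highest in SI and lowest in BM, by 1.50 ± 0.41 and 2.77 ± 0.46 (log2, adjusted p = 0.0129 and 0.000424). SI against LI did not pass at either (adjusted p = 0.943 and 0.287). At +9.60 kb, weakly open at 5.44 CPM per kb, LI had 3.14 and 4.87 CPM and SI 4.24 and 4.21. The *Ccr4* promoter region had 3.82 and 4.92 CPM in BM, 9.68 and 8.92 in lung, 7.67 and 12.3 in LI, 13.1 and 15.7 in pancreas, and 13.4 and 16.3 in SI. It was commonly decreased in BM, by at least 1.09 (log2, unadjusted p = 0.00117), and the call held in all refits. Upstream, the region at −11 kb was lowest in SI (5.06 and 10.4 CPM, against 11.3 to 18.0 elsewhere). Its test over the 5 tissues did not pass (adjusted p = 0.0775), and the decreased call in SI was lost without BM replicate 2 (a margin of −0.53), LI replicate 1 (−0.67), or SI replicate 1 (−0.37), and with library size alone (−0.51). Without SI replicate 2 the margin was −1.40 and the test over tissues passed (adjusted p = 0.00444).

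*Ccr8*, the receptor for CCL1, had the most open promoter of the members at 84.5 CPM per kb, higher than 93.1% of all regions. Its promoter region had 53.5 and 66.4 CPM in SI and 98.7 to 142 CPM in the other 8 libraries. SI was lower than LI, the nearest tissue, by 0.87 (log2, unadjusted p = 0.000249) and lower than pancreas by 1.13 ± 0.19 (adjusted p = 0.000522). The decreased call held in all refits. The region at −7.53 kb had 17.3 and 25.1 CPM in BM and 9.59 and 10.3 in LI, a difference of 1.09 ± 0.24 (log2, adjusted p = 0.00340), and its test over tissues was lost without BM replicate 2 (adjusted p = 0.0574). The region at −9.27 kb did not differ (adjusted p = 0.150).

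**Figure D3:**
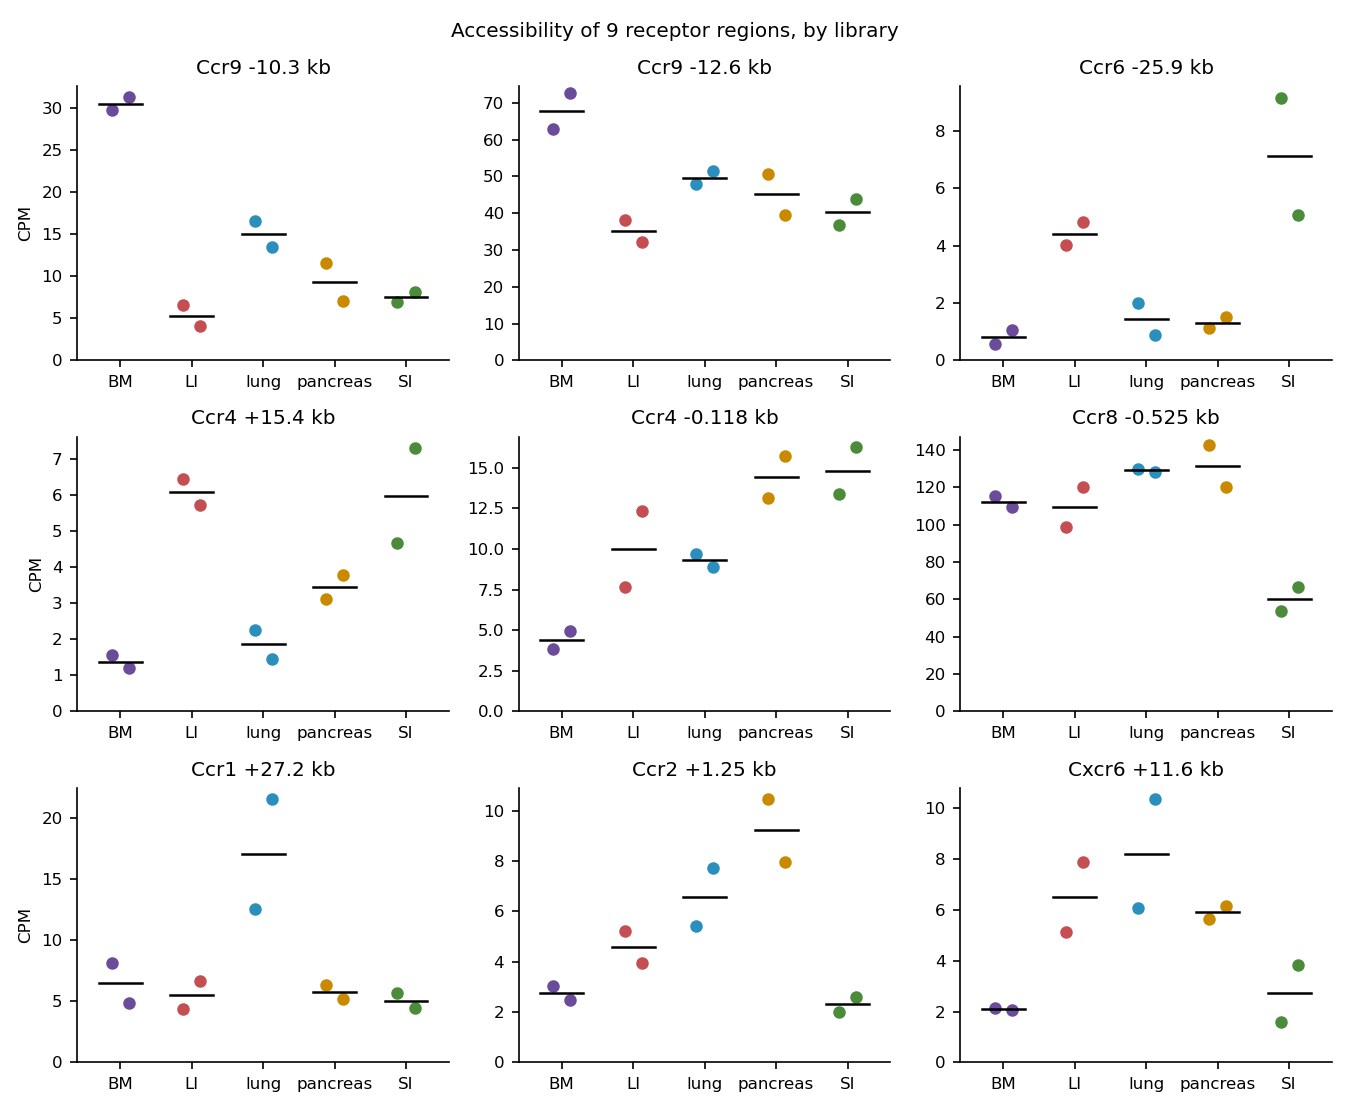
CPM of 9 regions, with 1 point per library and a line at the mean of the 2 libraries of a tissue. The *Ccr9* regions are highest in BM, and the *Ccr6* region and *Ccr4* +15.4 kb in LI and SI. *Ccr1* +27.2 kb is highest in lung and *Ccr2* +1.25 kb in pancreas, while the *Ccr8* promoter region is lowest in SI. At *Cxcr6* +11.6 kb, the BM and SI points lie below those of lung, LI, and pancreas, which overlap.

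*Cxcr4*, the receptor for CXCL12, had regions from 43.1 kb downstream to 240 kb upstream of its TSS, and 16 of the 23 differed among tissues (69.6%). Of the 16, 10 were highest in lung and 11 lowest in SI. The promoter region at −0.119 kb had 54.1 and 39.9 CPM in BM, 38.8 and 42.0 in lung, 33.9 and 30.4 in pancreas, 25.5 and 29.9 in LI, and 31.1 and 22.4 in SI. LI, pancreas, and SI overlapped. BM exceeded SI there by 0.81 ± 0.22 (log2, adjusted p = 0.0106), a contrast that no longer passed with library size alone (0.61), without BM replicate 1 (0.57), and without SI replicate 2 (0.59). The region at −113 kb had 60.6 and 75.4 CPM in lung, 53.1 and 48.6 in BM, 27.7 and 37.5 in LI, 40.6 and 31.6 in pancreas, and 17.4 and 14.1 in SI. Both SI libraries were below the other 8, and lung exceeded SI by 2.11 ± 0.22 (log2, adjusted p = 8.42e-06). The region at −23.0 kb had 86.6 and 69.7 CPM in BM, 55.7 and 55.5 in lung, and 20.2 and 21.7 in SI. It was TS in BM (by at least 0.49, unadjusted p = 0.0306) and commonly decreased in SI (by at least 0.96). The BM call was lost without BM replicate 1 (0.33), lung replicate 1 (0.48), or lung replicate 2 (0.47), and with library size alone (0.28), while the SI call held in all refits, with a margin of −0.63 without LI replicate 2.

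At −13.8 kb, SI had 3.32 and 1.85 CPM against 6.54 to 13.1 CPM in the other 8 libraries, and *Cxcr4* was commonly decreased there by at least 1.56 (log2). At −113 kb the margin was 1.05, and both calls held in all refits. SI was also called decreased at −109 kb (by at least 0.85), −114 kb (1.22), and −199 kb (0.67). At −109 kb and −114 kb, SI replicate 1 had 4.04 and 3.23 CPM, and SI replicate 2 had 2.06 and 0.906. Without SI replicate 2 the *Cxcr4* margins at −109 kb and −114 kb were −0.42 and −0.56, and both calls were lost, while without SI replicate 1 they were −1.42 and −2.40. The −109 kb call was also lost without BM replicate 1 (−0.91) or 2 (−0.78) and with library size alone (−0.65). The calls were also lost for the −114 kb region without LI replicate 2 (−1.01) and for the −199 kb region without LI replicate 2 (−0.51), pancreas replicate 1 (−0.49), or SI replicate 1 (−0.47), with library size alone (−0.44), and with GC content offsets (−0.52). Lung was TS at 2 of the 10 regions where it was highest. At −117 kb, lung had 11.6 and 14.0 CPM and the other libraries 2.51 to 7.58, so lung was TS by at least 1.15 (log2, unadjusted p = 0.002), and the call held in all refits. At −179 kb, lung had 7.76 and 9.38 CPM, LI 5.93 and 4.34, pancreas 1.77 and 3.13, BM 1.32 and 1.24, and SI 1.06 and 1.29. Lung exceeded SI by 2.86 ± 0.38 (log2, adjusted p = 7.39e-05) and LI by 0.75 (unadjusted p = 0.0453). This lung call was lost without BM replicate 1 (0.75), BM replicate 2 (0.75), LI replicate 2 (0.54), lung replicate 1 (0.88), or lung replicate 2 (0.61), and with the replicate number as a block (0.74). BM was decreased at −175 kb, with 7.44 and 5.25 CPM against 10.1 to 18.7 CPM elsewhere (by at least 1.15), a call that held in all refits although the test over tissues was lost without BM replicate 2. The order of tissues differed along the locus, with BM highest at −0.119 kb and −23.0 kb and below lung at −80.1 kb (6.90 and 7.04 CPM, lung 16.7 and 21.2), −109 kb, −175 kb, and −179 kb.

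**Figure D4:**
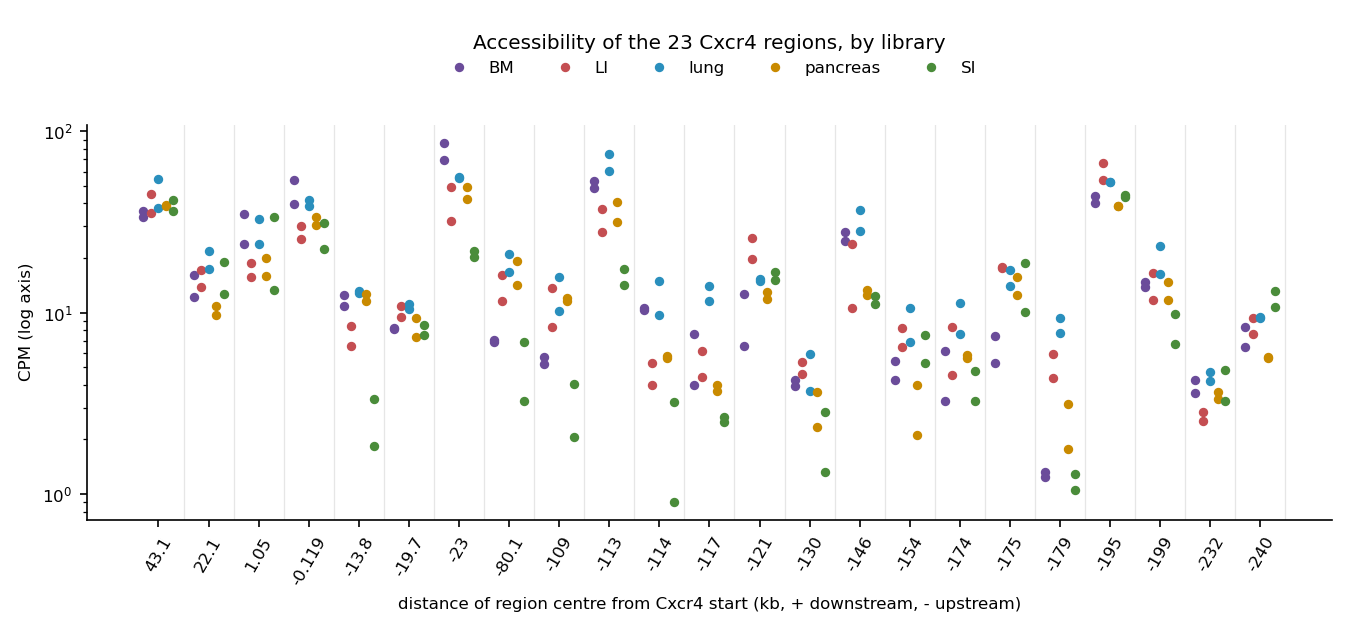
CPM (log axis) of the 23 *Cxcr4* regions in order of their distance from the TSS, with 1 point per library and a colour per tissue. Both SI points are below the other 8 at −13.8, −23.0, −109, −113, and −114 kb. Both lung points are above the other 8 at regions that include −113, −117, and −179 kb.

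*Ccr2*, the receptor for CCL2, had its clearest difference at +1.25 kb, in intron 1. Pancreas had 10.5 and 7.98 CPM there, lung 5.41 and 7.73, LI 5.23 and 3.95, BM 3.03 and 2.48, and SI 2.02 and 2.61. Both pancreas libraries were above the other 8, and pancreas exceeded SI by 1.99 ± 0.33 (log2, adjusted p = 0.000515) but lung by only 0.49 (unadjusted p = 0.130). The *Ccr2* region at −33.6 kb passed narrowly (adjusted p = 0.0419) and failed when any of 6 libraries was left out, with adjusted p up to 0.181, and with GC content offsets (0.118, or 0.134 with the replicate block). The regions at −2.88 kb and −1.72 kb did not pass (adjusted p = 0.152 and 0.0601).

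*Cxcr6*, the receptor for CXCL16, lies within *Fyco1*, and its 7 regions are in introns of that gene. The promoter region had 14.5 to 25.4 CPM over the 10 libraries, with overlapping tissues (adjusted p = 0.188). At +11.6 kb, lung had 6.08 and 10.4 CPM, LI 5.14 and 7.86, pancreas 5.65 and 6.15, SI 1.59 and 3.83, and BM 2.15 and 2.07. BM and SI were lower than the other 3 tissues in every library, and lung exceeded BM by 1.96 ± 0.40 (log2, adjusted p = 0.00235), or by 1.54 without lung replicate 2, where that contrast no longer passed. The region at +14.2 kb was also highest in lung (10.7 and 8.50 CPM) and lowest in SI (3.18 and 2.89), by 1.66 ± 0.33 (adjusted p = 0.00186). The region at +12.3 kb, highest in lung, passed over the 5 tissues (adjusted p = 0.0474) but reached 0.246 with single libraries left out and 0.0702 with GC content offsets.

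*Ccr1*, a receptor for CCL3 and CCL5, had 16 regions, of which 5 differed among tissues. The 6 regions from +36.6 to +45.2 kb, among them the most open member at 149 CPM per kb (+44.1 kb), did not pass the test (adjusted p of 0.1 to 0.914). At +31.9 kb, BM had 5.48 and 6.12 CPM and the other 8 libraries 16.7 to 28.1. *Ccr1* +31.9 kb was commonly decreased in BM by at least 1.68 (log2, unadjusted p = 2.24e-06), a call that held in all refits, and LI exceeded BM by 2.15 ± 0.24 (adjusted p = 1.34e-05). At +27.2 kb, lung had 12.5 and 21.6 CPM and the others 4.36 to 8.17, so lung was TS by at least 1.40 (unadjusted p = 0.000611). The lung call at +27.2 kb held in all refits, although the test over tissues was lost without lung replicate 2 (adjusted p = 0.0708). At +35.4 kb, pancreas had 30.2 and 27.4 CPM and the others 10.6 to 21.2. That TS call, with a margin of 0.57 over lung, was lost without LI replicate 1 (0.46), lung replicate 1 (0.44), or pancreas replicate 1 (0.49), with library size alone (0.32), and with GC content offsets (0.44). At +20.7 kb pancreas had 9.54 and 10.9 CPM and BM 9.05 and 7.41, above lung (5.53 and 5.58), SI (2.74 and 3.59), and LI (2.44 and 3.30). At +17.9 kb BM had 4.65 and 4.05 CPM and pancreas 3.36 and 3.13, with SI lowest (1.20 and 0.697). The +17.9 kb region was weakly open, at 4.75 CPM per kb, with only 25 and 20 counts in SI. The promoter region at +0.012 kb had 1.38 to 7.50 CPM and did not pass (adjusted p = 0.0657). The 11 regions from +27.2 to +45.2 kb lie nearer a predicted transcript, *Gm51701*, than *Ccr1*, and would not be members if predicted transcripts were counted. The same is true of 9 *Cxcr4* regions, at +43.1 kb and from −154 to −240 kb.

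*Ccr7*, the receptor for CCL19 and CCL21, had 7 regions, of which 1, at +22.5 kb, differed. Its test over tissues was lost without BM replicate 1 or without BM replicate 2. At +22.5 kb, BM had 11.6 and 11.04 CPM and the other 8 libraries 15.7 to 28.8. *Ccr7* was commonly decreased in BM there by at least 0.66 (log2, unadjusted p = 0.0123), a call lost without BM replicate 2 (−0.62) or lung replicate 2 (−0.48). LI exceeded BM by 1.11 ± 0.24 (adjusted p = 0.00248), or by 0.83 without LI replicate 2, where it no longer passed. The promoter region at −0.156 kb had 9.06 to 16.0 CPM, with tissues overlapping (adjusted p = 0.177).

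The further genes of the pathway were taken from lists. Of 15 other chemokine and chemoattractant receptors, 10 had a region that was tested, while the 1 region of *Ackr1* had no counts. Of the 10, 5 differed among tissues by summed counts, near the 41.4% of all genes. Their median log2 difference of highest over lowest tissue was 0.64, against 0.645 for all genes and 0.847 for the 9 members. *Ackr3*, a scavenger of CXCL12, had 30.6 and 6.51 CPM in SI and 1.88 to 10.1 CPM elsewhere, so SI replicate 1 alone was above all other libraries. *Cx3cr1*, the fractalkine receptor, had 146 and 160 CPM in lung and 62.4 and 91.5 in SI (0.99 ± 0.18, log2, adjusted p = 0.00186). *Ccr3*, the eotaxin receptor, had 17.8 and 17.1 CPM in pancreas and 4.53 to 11.2 elsewhere (1.57 ± 0.29 over SI, adjusted p = 0.00170). Of 22 signalling genes, 22 had a region and 10 differed, also near the 41.4% of all genes. Of the 10, 5 were highest in SI, 3 in BM, and 1 each in LI and pancreas, where of all 7230 genes that differed 1345 were highest in SI and 3122 in BM. *Pik3r5*, a regulatory subunit of PI3K gamma, had 71.5 and 79.7 CPM in BM and 145 to 226 elsewhere (1.51 ± 0.15 for pancreas over BM, adjusted p = 1.03e-05). *Rasgrp2*, an activator of Rap1, had 60.8 and 50.6 CPM in SI and 33.6 and 29.5 in LI. *Arrb2*, which encodes beta-arrestin 2, had 125 and 87.8 CPM in BM and 68.7 and 63.3 in LI.

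The genes whose summed log2 CPM followed each receptor most closely over the 10 libraries were named without a test, since the libraries share tissues and many genes were ranked. Those ranked, out of the 17484, passed a minimum of summed counts and shared no region with the receptor. Pearson's r was 0.977 between *Ccr9* and *Hesx1*, 0.936 between *Cxcr4* and *Adamts6*, 0.980 between *Ccr6* and *A830005F24Rik*, and 0.973 and 0.971 between *Ccr8* and *Ctla2b* and *Ctla2a*. It was 0.961 between *Ccr2* and *Fam133b*, 0.983 between *Ccr7* and *Lipo2*, 0.944 between *Cxcr6* and *Akap11*, 0.930 between *Ccr4* and *Plekhb2*, and 0.927 between *Ccr1* and *Gimap8*.

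The motifs marked in the printed sequences were counted in the central 300 bases of each region. A RUNX match was in 36 of 73 members (49.3%), against 29.1% of all regions and 33.0% of regions outside promoters. A TCF match was in 26 (35.6%), against 17.5% and 19.3%. AP-1 was in 19 (26.0%, against 18.3% and 21.2%), nuclear receptor half-sites in 17 (23.3%, against 18.0% and 19.8%), and GATA in 15 (20.5%, against 17.2% and 20.0%). Ahr matches were in 13 (17.8%, against 29.6% and 23.9%), E-boxes in 9 (12.3%, against 18.1% and 18.7%), KLF in 7 (9.59%, against 13.8% and 11.9%), and IRF in 5 (6.85%, against 8.96% and 9.63%). A match is a run of letters and not a bound site, and the 73 regions were not drawn to match others in base composition.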

How the data were processed

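Nuclei of 10 ILC2 libraries were profiled by ATAC-seq. Per the labels and methods, the authors checked reads with FastQC 0.11.9, mapped them to mm10 with Bowtie2 2.2.9, kept uniquely mapped reads (SAMtools 1.8), called peaks with MACS2 2.1.1, kept peaks that both replicates shared, merged tissues with HOMER, and counted reads with bedtools. The deposited values are raw counts of reads per merged peak. Removal of duplicates and mitochondrial reads and a transposase shift are not given in the sources used here, so counts may include duplicates.

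Samples were grouped by their labels. Regions were annotated from curated RefSeq transcripts of GRCm38.p6, with promoters reaching 1000 bp before and 100 bp past a TSS. The 49981 regions with at least 1 count were fitted together with edgeR 4.0.16 (R 4.3.3; TMM, glmQLFit, glmQLFTest, tissue as factor), with Benjamini-Hochberg adjustment over all regions, and DESeq2 1.42.0 was an alternative. Pairwise adjusted p-values are adjusted over all regions within a contrast. Summed counts of 17484 genes were fitted with the library sizes and factors of the regions. Values are CPM on TMM-scaled library sizes. The fits were tested on simulated data.

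Named regions were, for each gene, the one nearest the TSS, the one with the lowest p over tissues, and each one called TS, commonly decreased, or intestinal, while 3 genes with the lowest p were named from each further list. Members, lists, and rules were chosen with earlier results of these data known. Other regions were named after their values were seen.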

Additional observations from a re-analysis of the deposited data

How the results depend on the processing

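With 2 libraries per tissue, margins near the threshold turn on single libraries. Of 38 members that differed among tissues, 36 were kept under each of 8 alternatives (library size alone, DESeq2 size factors, DESeq2, filters by filterByExpr or at 10 counts in 2 libraries, the replicate block, and GC content offsets without and with it) and 22 with each library left out. Left-out fits gave 29 to 48 members differing, 4 to 9 TS, 10 to 14 commonly decreased, 1 to 2 intestinal, and 4 to 7 genes differing. The 4 TS calls were left without lung replicate 2, and 1 intestinal call without LI replicate 2, pancreas replicate 1, or SI replicate 2. Adjusted p below 0.05 in each contrast left 3 TS, 7 decreased, and 0 intestinal members, against 7, 12, and 2, and a log2 fold change above 1 left 3, 6, and 1. DESeq2 left 1 intestinal member. Counting predicted transcripts too, chosen after seeing the data, left 53 members and 4 TS calls. Library size alone moved the median log2 fold change of all regions by up to 0.251 and gave 44 differing members, with no named log2 fold change reversed under any alternative.

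No source says that a replicate number marks a shared batch, and differences between replicates correlated from −0.218 to 0.196 over the 10 pairs of tissues, above 0.1 in 4 of them (among LI, lung, and SI, and between BM and LI), so the numbers were not taken to pair the libraries. With the replicate block, 41 members differed, 7 were TS, 14 commonly decreased, and 2 intestinal, and 5 genes differed.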
